A study of Rattus norvegicus with 14 samples.

Results

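Cyp2c11, Cyp2c12 and Cyp2c13 are cytochrome P450 genes of rat liver that are used as readouts of the sex-specific pattern of growth hormone release. On the Affymetrix rat array used here, 7 of 8740 probe sets besides controls carry 1 of these symbols: 3 for Cyp2c11, 2 for Cyp2c12 and 2 for Cyp2c13. They were picked by symbol in the platform annotation, and all 7 were bright enough to pass the filter on dim probe sets. The 3 genes were put together because earlier results of these data showed them moving with the diet, so their diet differences are given here as a description, with no p-value.

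The liver RNA came from male rats 74 days old that had eaten a special diet for 53 days, either sufficient or deficient in vitamin A. The sources used here do not state the strain or what else the diets held. Each diet has 7 single-channel arrays: 4, numbered 1 to 4, from about 10 µg of total RNA, and 3, numbered 1, 2 and 4, from about 2 µg. The 10 µg and 2 µg arrays that share a diet and a number were averaged into what is called a liver here (n = 4 per diet), although the labels do not say that such arrays share a liver. Liver number 3 of each diet rests on its 10 µg array alone. P-values therefore measure the spread between these averaged values or arrays, which may be partly technical.

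Growth hormone leaves the pituitary of adult male rats in pulses and that of females nearly continuously. In hepatocytes its receptor, Ghr, activates the kinase Jak2 and the transcription factor Stat5b, and the timing of the signal sets which P450 genes are transcribed. Cyp2c11, which hydroxylates testosterone, is the main male-specific P450 of rat liver, Cyp2c13 is another male-specific steroid hydroxylase, and Cyp2c12, which acts on steroid sulphates, is the classic female-specific one.

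The promoters of the 3 genes are shown because Cyp2c12 and Cyp2c13 are direct neighbours on chromosome 1, with 0 protein-coding genes between them in the GRCr8 annotation, and yet moved in opposite directions. Between Cyp2c11 and Cyp2c12 lie 17 protein-coding genes, 6 of them with a Cyp2c symbol. Each sequence covers 250 bases before the RefSeq start site and 50 from it on, read 5′ to 3′ along the gene's strand. Capitals mark, on either strand, the letters ATTGAT (the core bound by HNF6, the product of Onecut1, a known activator of Cyp2c12), AGGTCA or AGTTCA (sites of nuclear receptors, the family that includes the retinoic acid receptors) and TATAAA (the TATA box).
Cyp2c11, chr1:246174966-246175265, + strand: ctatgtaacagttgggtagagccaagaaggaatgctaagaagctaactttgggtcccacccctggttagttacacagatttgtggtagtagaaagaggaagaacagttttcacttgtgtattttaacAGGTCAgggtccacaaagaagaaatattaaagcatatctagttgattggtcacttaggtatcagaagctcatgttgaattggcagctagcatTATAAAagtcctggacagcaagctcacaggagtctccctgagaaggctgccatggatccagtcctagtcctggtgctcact
Cyp2c12, chr1:248676985-248677284, - strand: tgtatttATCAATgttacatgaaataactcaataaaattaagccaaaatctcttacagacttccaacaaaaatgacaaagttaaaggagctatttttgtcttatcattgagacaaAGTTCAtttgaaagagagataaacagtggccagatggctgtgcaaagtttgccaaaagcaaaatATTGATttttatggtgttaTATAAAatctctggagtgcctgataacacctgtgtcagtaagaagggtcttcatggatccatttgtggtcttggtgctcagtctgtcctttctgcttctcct
Cyp2c13, chr1:248787139-248787438, - strand: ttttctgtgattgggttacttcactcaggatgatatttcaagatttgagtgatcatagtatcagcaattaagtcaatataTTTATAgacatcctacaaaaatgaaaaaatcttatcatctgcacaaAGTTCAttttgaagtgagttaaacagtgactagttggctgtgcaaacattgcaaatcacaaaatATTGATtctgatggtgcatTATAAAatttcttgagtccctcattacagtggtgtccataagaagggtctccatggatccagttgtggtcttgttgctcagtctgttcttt

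The Cyp2c12 and Cyp2c13 promoters were 67.5% identical over a global alignment of 332 columns, against 53.5% for Cyp2c11 with Cyp2c12 and 55.9% for Cyp2c11 with Cyp2c13. Both had ATTGAT on the gene's strand close before the start site, at -71 to -66 in Cyp2c12 and at -60 to -55 in Cyp2c13, and Cyp2c12 had a second match on the other strand at -243 to -238. In the Cyp2c11 window these letters do not occur. Of 33469 rat promoters of this length, 8.06% hold it. The letters AGTTCA stood at -135 to -130 in Cyp2c12 and at -124 to -119 in Cyp2c13 (14.5% of promoters hold it), and AGGTCA at -123 to -118 in Cyp2c11 (16.2%). TATAAA was found in all 3, at -31 to -26, -52 to -47 and -41 to -36 in the order of the genes above, with another match on the other strand of Cyp2c13 (14.2% of promoters). The windows had no match to TTCNNNGAA, the letters bound by Stat5 (8.87%), or to TGTTTAC, one form of the site of Foxa factors (3.78%). These matches are descriptions of letters, and binding was not measured.

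Levels below are log2 of the intensity plus 16, with a trimmed mean of 500 set on each array, and differences are deficient minus sufficient on that scale, which understates the change of dim genes. An adjusted p under 0.05 in limma counts as a call. In liver tissue, fewer cells of a type and less RNA per cell cannot be told apart.

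Cyp2c13, the male-specific steroid hydroxylase, was the most changed of the 3 genes. On its brighter probe set, M82855cds_s_at, the sufficient livers 1 to 4 read 13.69, 13.63, 13.25 and 13.03 and the deficient livers 11.25, 11.45, 11.41 and 11.00. The lowest sufficient liver stood well above the highest deficient one, and number 4 was the lowest of its diet in both groups. The means were 13.40 ± 0.32 (SD, n = 4) and 11.28 ± 0.21, a difference of -2.12 (SE 0.16), or 4.35-fold lower in deficient livers. On the dimmer probe set, J02861mRNA_s_at, the sufficient livers read 12.55, 12.51, 12.35 and 11.97 and the deficient livers 9.79, 9.80, 10.11 and 9.26. Here too the groups were apart and number 4 was lowest in each, and the difference was -2.60 (SE 0.19), or 6.07-fold. In the authors' intensities, this probe set ran from 8704.7 to 14185.2 over the 7 sufficient arrays and from 1082.4 to 2331.2 over the 7 deficient ones, so deficient livers kept a clear signal. Of 5244 tested probe sets, 9 had a more negative difference than the brighter Cyp2c13 probe set and 7 than the dimmer one.

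Cyp2c12, the female-specific gene, went the other way in these male livers. On its brighter probe set, M33550cds_s_at, sufficient livers 1 to 4 read 8.47, 9.09, 8.40 and 8.93 and deficient livers 10.04, 10.38, 9.73 and 10.26. Every deficient liver was above every sufficient one. The means were 8.72 ± 0.34 (SD, n = 4) and 10.10 ± 0.28, a difference of 1.38 (SE 0.19), or 2.60-fold higher in deficient livers. On J03786_s_at the sufficient livers read 7.96, 8.61, 7.38 and 8.42 and the deficient livers 9.72, 9.83, 9.21 and 9.76, which gave 1.54 (SE 0.25), or 2.91-fold. Again the groups were apart, sufficient livers 2 and 4 stood above 1 and 3 on both probe sets, and liver 3, read only from a 10 µg array, was the lowest of each diet on both. The intensity of J03786_s_at was already 299.9 to 1064.9 on sufficient arrays, with a median of 603.3, and it was 1146.8 to 2199.6 on deficient ones. This probe set thus gave signal in males on the sufficient diet, and whether related transcripts contributed to it was not tested. Of the 5244 probe sets, 12 had a larger positive difference than M33550cds_s_at and 8 than J03786_s_at.

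Cyp2c11, the main male-specific P450, moved much less than Cyp2c13. On its brightest probe set, J02657_s_at, sufficient livers 1 to 4 read 13.81, 13.79, 13.76 and 13.76 and deficient livers 13.73, 13.21, 13.52 and 13.45. The sufficient livers were nearly equal, and deficient liver 1 came close to the lowest of them without overlapping. The difference was -0.30 (SE 0.11), or 1.23-fold lower. On M18363cds_s_at the sufficient livers read 13.17, 12.88, 13.12 and 12.86 and the deficient livers 12.92, 12.21, 12.56 and 12.21, a difference of -0.53 (SE 0.16). On X79081mRNA_f_at they read 11.27, 10.76, 11.20 and 11.17 against 10.91, 10.41, 10.13 and 10.02, a difference of -0.73 (SE 0.19), or 1.66-fold lower. On both of these the diets overlapped through deficient liver 1, the highest deficient liver on all 3 probe sets; without it the 3 differences were -0.38, -0.68 and -0.92. Over single arrays, which are not counted as separate livers here, all 3 Cyp2c11 probe sets overlapped between the diets. The 4 probe sets of Cyp2c12 and Cyp2c13 did not. The share over all probe sets was not counted for single arrays, and nothing is read from these overlaps.

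Of the 7 probe sets, 5 had averaged values that did not overlap between the diets, as did 8.91% of all 5244 tested. Since the diet contrast chose the genes, nothing is read from that count.

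**Figure D1:**
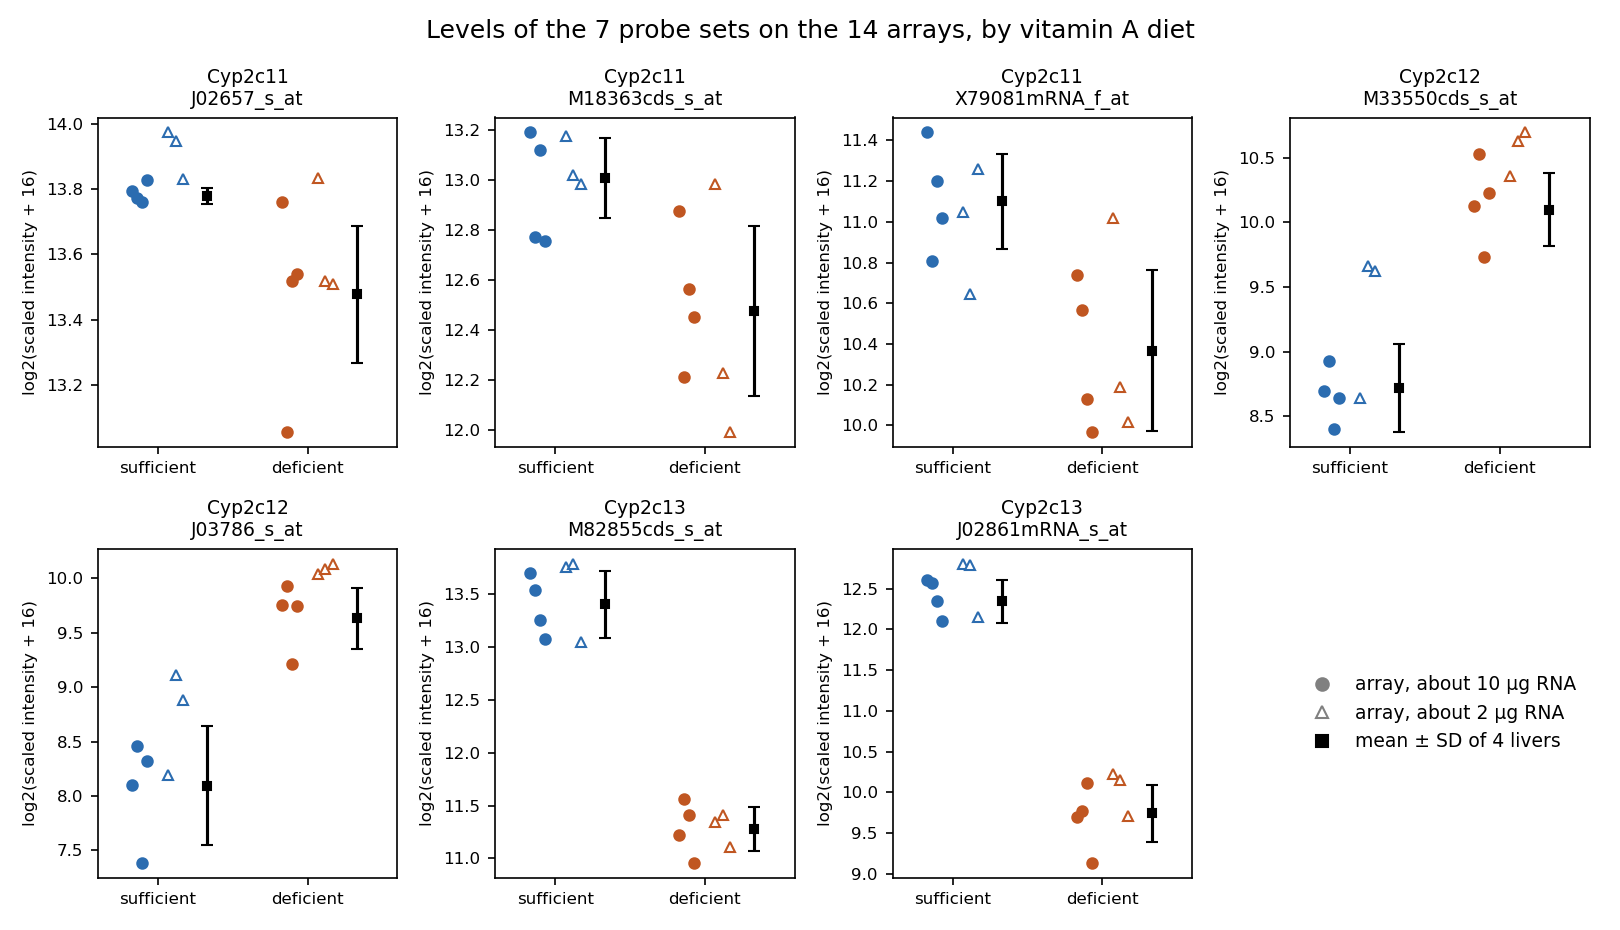
Level of each of the 7 probe sets, as log2 of the scaled intensity plus 16 (vertical axes differ and do not start at 0), on every array of each diet. Filled circles are 10 µg arrays, open triangles 2 µg arrays, and black squares the mean ± SD of 4 averaged livers, for which the 2 µg arrays were first moved by the mean difference between amounts; the Cyp2c12 and Cyp2c13 arrays of the 2 diets lie apart, those of Cyp2c11 overlap.

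In each of the 3 genes the dimmer probe set had the larger difference, an order noticed after the values were seen. It ran from -0.30 over -0.53 to -0.73 for Cyp2c11, from 1.38 to 1.54 for Cyp2c12 and from -2.12 to -2.60 for Cyp2c13. Their SEs overlap for neighbouring Cyp2c11 probe sets and for the Cyp2c12 pair, and the order within a gene was not tested. In the array's naming, probe sets ending in _s_at can share sequence with related transcripts and the 1 ending in _f_at, X79081mRNA_f_at of Cyp2c11, stands for a family of similar sequences. The Cyp2c genes are close relatives, so the transcripts behind each value are uncertain, and a contribution of relatives that also moved, such as Cyp2c7 and Cyp2c22 given with the gene lists, was not tested.

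A comparison within arrays does not depend on how arrays were scaled to each other. Taking the brightest probe set of each gene, Cyp2c12 minus Cyp2c13 was 3.50 higher in deficient than in sufficient livers. Set against the sufficient mean, the 4 deficient livers lay between 3.00 and 3.94 and the sufficient livers between -0.55 and 0.58. Each shift given here combines diet differences reported above, for which the genes were chosen, and is no separate evidence. Cyp2c12 minus Cyp2c11 was 1.68 higher, with deficient livers at 1.27 to 2.22 and sufficient livers at -0.30 to 0.36. The 2 male-specific genes also parted: Cyp2c13 minus Cyp2c11 shifted by -1.82, with deficient livers at -2.10 to -1.38 and sufficient livers at -0.35 to 0.26.

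Arrays of both RNA amounts went into the averages above, so agreement between them is no separate evidence. A share over all probe sets was not counted. The diet differences had the same sign at both RNA amounts in all 7 probe sets. For M82855cds_s_at of Cyp2c13 it was -2.10 over the 10 µg arrays (4 against 4) and -2.24 over the 2 µg arrays (3 against 3), and for M33550cds_s_at of Cyp2c12 it was 1.49 and 1.25. For J02657_s_at of Cyp2c11 it was -0.32 and -0.30. When the clock gene Dbp, picked in an earlier look at these data, entered the fit, X79081mRNA_f_at of Cyp2c11 was -0.47 in place of -0.73, while the other 6 differences moved by less than 1.5 times.

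**Figure D2:**
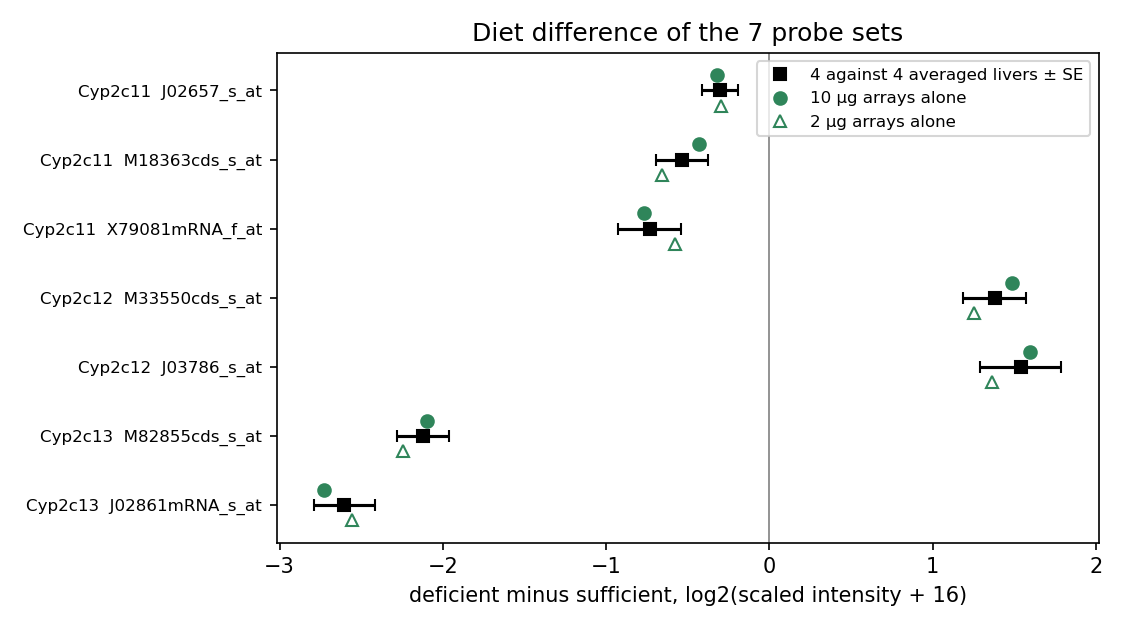
Deficient minus sufficient difference of the 7 probe sets on the log2 scale. Black squares are 4 against 4 averaged livers with the SE from limma, filled circles the 10 µg arrays alone and open triangles the 2 µg arrays alone; Cyp2c12 lies to the right of 0 at 1.38 and 1.54, Cyp2c13 to the left at -2.12 and -2.60, and Cyp2c11 nearer 0.

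The spread among livers of 1 diet is a measure that the choice of genes did not use directly. The percentiles below were taken over tested probe sets of every level. The genes differ in level and were not matched for it. On J02657_s_at of Cyp2c11 the SD over sufficient livers was 0.02, at the 0.21th percentile of the SDs of the 5244 tested probe sets, and over deficient livers it was 0.21, at the 48.3th percentile. The intensities behind it were 27568.7 to 31888.2 in sufficient arrays. The other Cyp2c11 probe sets were not so narrow in sufficient livers, at the 28.6th and 53.1th percentiles. The Cyp2c12 probe sets were among the more variable ones in sufficient livers, at the 75.8th and 92.6th percentiles, and nearer the middle in deficient livers, at the 65.5th and 65.9th. Cyp2c13 stood at the 71.9th and 61.3th percentiles in sufficient and at the 46.8th and 78.2th in deficient livers.

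The RNA amount, about 10 µg against about 2 µg, is a contrast that did not choose the genes, and it was tested with limma over the 14 arrays with diet as a covariate. None of the 7 probe sets was called, and over all probe sets 0 of 5244 (0%) were called, with 347 at an unadjusted p under 0.05. Both Cyp2c12 probe sets read lower at 10 µg. For M33550cds_s_at the level was 9.41 ± 0.84 (SD, n = 8 arrays) at 10 µg and 9.94 ± 0.78 (n = 6) at 2 µg, a difference of -0.52 (95% interval -0.87 to -0.18, limma adjusted p = 0.532), with the 2 µg array higher in 5 of 6 pairs. For J03786_s_at the difference was -0.54 (interval -0.92 to -0.17, limma adjusted p = 0.532), with the 2 µg array higher in 6 of 6 pairs. The SDs there span both diets. With diet and number as a block, 2 of 5244 (0.0381%) were called, 1 of them (0.0191%) lower at 10 µg, and the Cyp2c12 differences were -0.41 and -0.36 (limma adjusted p = 0.242 and 0.178), again not called.

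Among the male-specific genes, J02861mRNA_s_at of Cyp2c13 was also lower at 10 µg in 6 of 6 pairs, at -0.26 (95% interval -0.59 to 0.06, limma adjusted p = 0.824) and, with the block, -0.33 (adjusted p = 0.132), close to J03786_s_at of Cyp2c12. Its other probe set, M82855cds_s_at, was -0.07 (interval -0.36 to 0.22). The 3 Cyp2c11 probe sets were at -0.14, 0.01 and 0.04, with intervals from -0.34 at the lowest to 0.40 at the highest. Whether the genes differed from each other in this was not tested. Without sufficient liver 1 the count over all probe sets was 2 and without sufficient liver 3 it was 1.

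**Figure D3:**
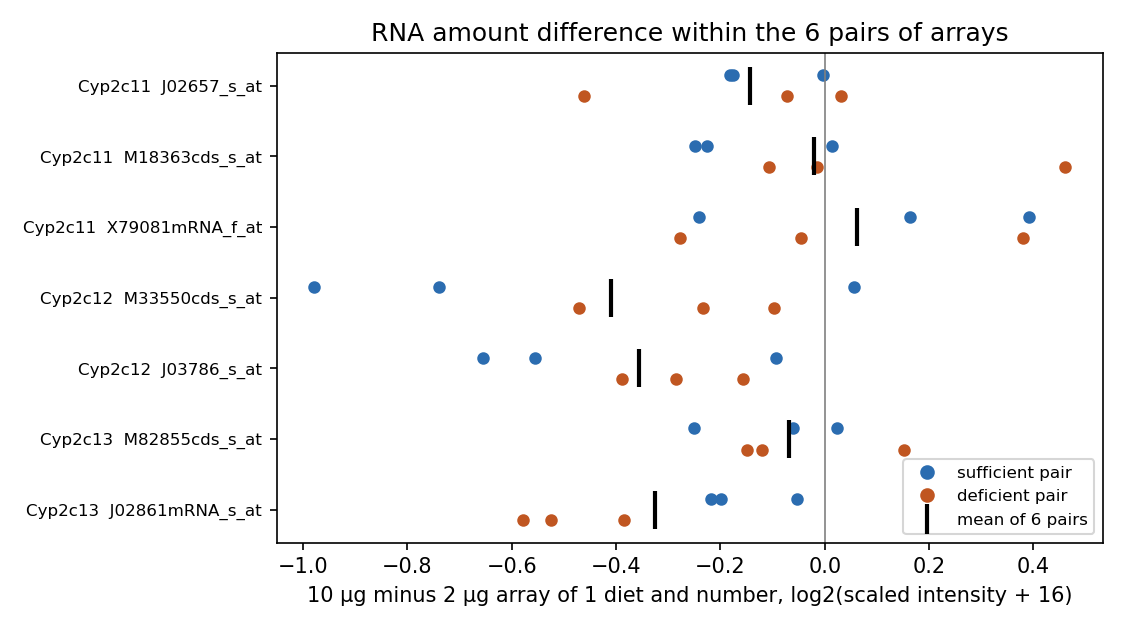
Difference between the 10 µg and the 2 µg array of the same diet and number, on the log2 scale, for the 7 probe sets. Points are the 6 pairs, coloured by diet, and black bars their mean; for J03786_s_at and J02861mRNA_s_at all 6 points lie below 0, and for Cyp2c11 they lie on both sides.

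Whether the diet difference depended on the RNA amount was asked with the interaction term. None of the 7 probe sets passed, at a limma adjusted p of 0.9995 for each, and 0 of 5244 (0%) did over all probe sets, with 96 at an unadjusted p under 0.05 (0 and 197 with diet and number as a block). The diet difference at 10 µg minus that at 2 µg was 0.24 for M33550cds_s_at (95% interval -0.48 to 0.95) and 0.14 for M82855cds_s_at (interval -0.45 to 0.74). Leaving out 1 liver moved these from 0.0711 (without sufficient 4) to 0.579 (without sufficient 1) and from 0.0650 (without sufficient 2) to 0.278 (without sufficient 4). The block gave narrower intervals, -0.27 to 0.84 and -0.21 to 0.33. For J02861mRNA_s_at of Cyp2c13 it gave -0.34 (interval -0.61 to -0.07, limma adjusted p = 0.997), an interval that leaves out 0 before adjustment over all probe sets. For the 3 Cyp2c11 probe sets the blocked intervals ran from -0.54 at the lowest to 0.60 at the highest.

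The genes above and below these P450s in the pathway were taken from lists that leave the 3 genes out. These lists were drawn up with earlier results of these data known, so their counts and p-values are no independent evidence. Over all 3135 tested genes, each read from its brightest probe set, 0.829% were called higher in deficient livers and 1.05% lower, and the median difference was 0.05. Of 22 tested genes of growth hormone signalling and liver transcription factors, 1 was called, Ghr, which was lower. It read 13.12 ± 0.24 (SD, n = 4) in sufficient and 11.91 ± 0.40 in deficient livers on its brightest probe set, a difference of -1.21 (SE 0.19, limma adjusted p = 0.00798), while its other probe sets gave -0.69 and -0.50 without passing. The call was lost with Dbp as a covariate (-1.32, adjusted p = 0.0960), at a difference about as large, and 2 genes of the list were called without sufficient liver 1. Stat5b, which carries the signal to the genes, was 7.89 ± 0.28 and 7.96 ± 0.21 (difference 0.08, SE 0.17, adjusted p = 0.905). Onecut1, whose product activates Cyp2c12, was 7.68 ± 1.00 and 6.93 ± 0.54 (-0.76, SE 0.44, adjusted p = 0.490), with an SD near 1 in sufficient livers. Hnf4a, a general hepatocyte factor, was 9.76 ± 0.15 and 10.09 ± 0.11 (0.33, SE 0.12, adjusted p = 0.240). The median of the list was 0.06.

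Of 11 other male-predominant genes tested, 3 fell and 8 did not pass, with a median of -0.32. Obp3, the pheromone carrier, fell by 5.02 on the log2 scale (SE 0.47), Cyp2c22, a Cyp2c relative that lies next to Cyp2c13 on the chromosome, fell by 3.27 (SE 0.26, limma adjusted p = 5.4e-05), and Sult1c3, a sulfotransferase, fell by 1.24 (SE 0.16). The Sult1c3 call was lost with Dbp as a covariate (-1.25, adjusted p = 0.0599). Of the 8 that did not pass, Car3, a carbonic anhydrase, at -1.16 (SE 0.29, adjusted p = 0.0774) and Hao2, a hydroxy acid oxidase, at -0.81 (SE 0.19, adjusted p = 0.0600) had the largest negative differences, and Egfr was at -0.32. The P450s Cyp3a2 at -0.07 (SE 0.11) and Cyp2a2 at -0.09 (SE 0.17) and the steroid dehydrogenase Hsd3b5 at 0.00104 (SE 0.18) lay near 0, and the P450s Cyp7b1 at 0.14 (SE 0.30) and Cyp3a18 at 0.36 (SE 0.26) above it. A dimmer Obp3 probe set gave -2.06 (SE 0.27, limma adjusted p = 0.00246), with a deficient mean of 5.51, under the filter value of 6.196. On the brightest probe set of each gene, the list ran from 0.36 to the 32.5-fold fall of Obp3. Beside it, the Cyp2c11 probe sets lay at -0.30 to -0.73, and those of Cyp2c13 at -2.12 and -2.60, between Sult1c3 and Cyp2c22. With the number shared across diets as a block 5 were called.

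Of 8 other female-predominant genes tested, Sult2a6, a bile acid and steroid sulfotransferase, rose by 1.26 (SE 0.12, limma adjusted p = 0.000198), Cyp2c7, which oxidizes retinoic acid, fell, and 6 did not pass; the median was 0.46. The intensity of Cyp2c7 was 2593.3 to 21498.1 on sufficient arrays and 5.5 to 70.1 on deficient ones, where its level lay under the filter value of 6.196, so its fall is given as a bound, at least 60.4-fold against that value. Sult2a1, Sult2a2 and Cyp2a1 had positive differences of 0.83, 0.92 and 0.54, and Cyp3a9 a negative one of -1.29. So Cyp2c12 and Sult2a6 read higher while Cyp2c7, another Cyp2c gene of the female pattern, read far lower. Without sufficient liver 4, 4 genes of this list were called. All 3 Sult2a6 probe sets are named as family probe sets and can share targets with Sult2a1 and Sult2a2.

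**Figure D4:**
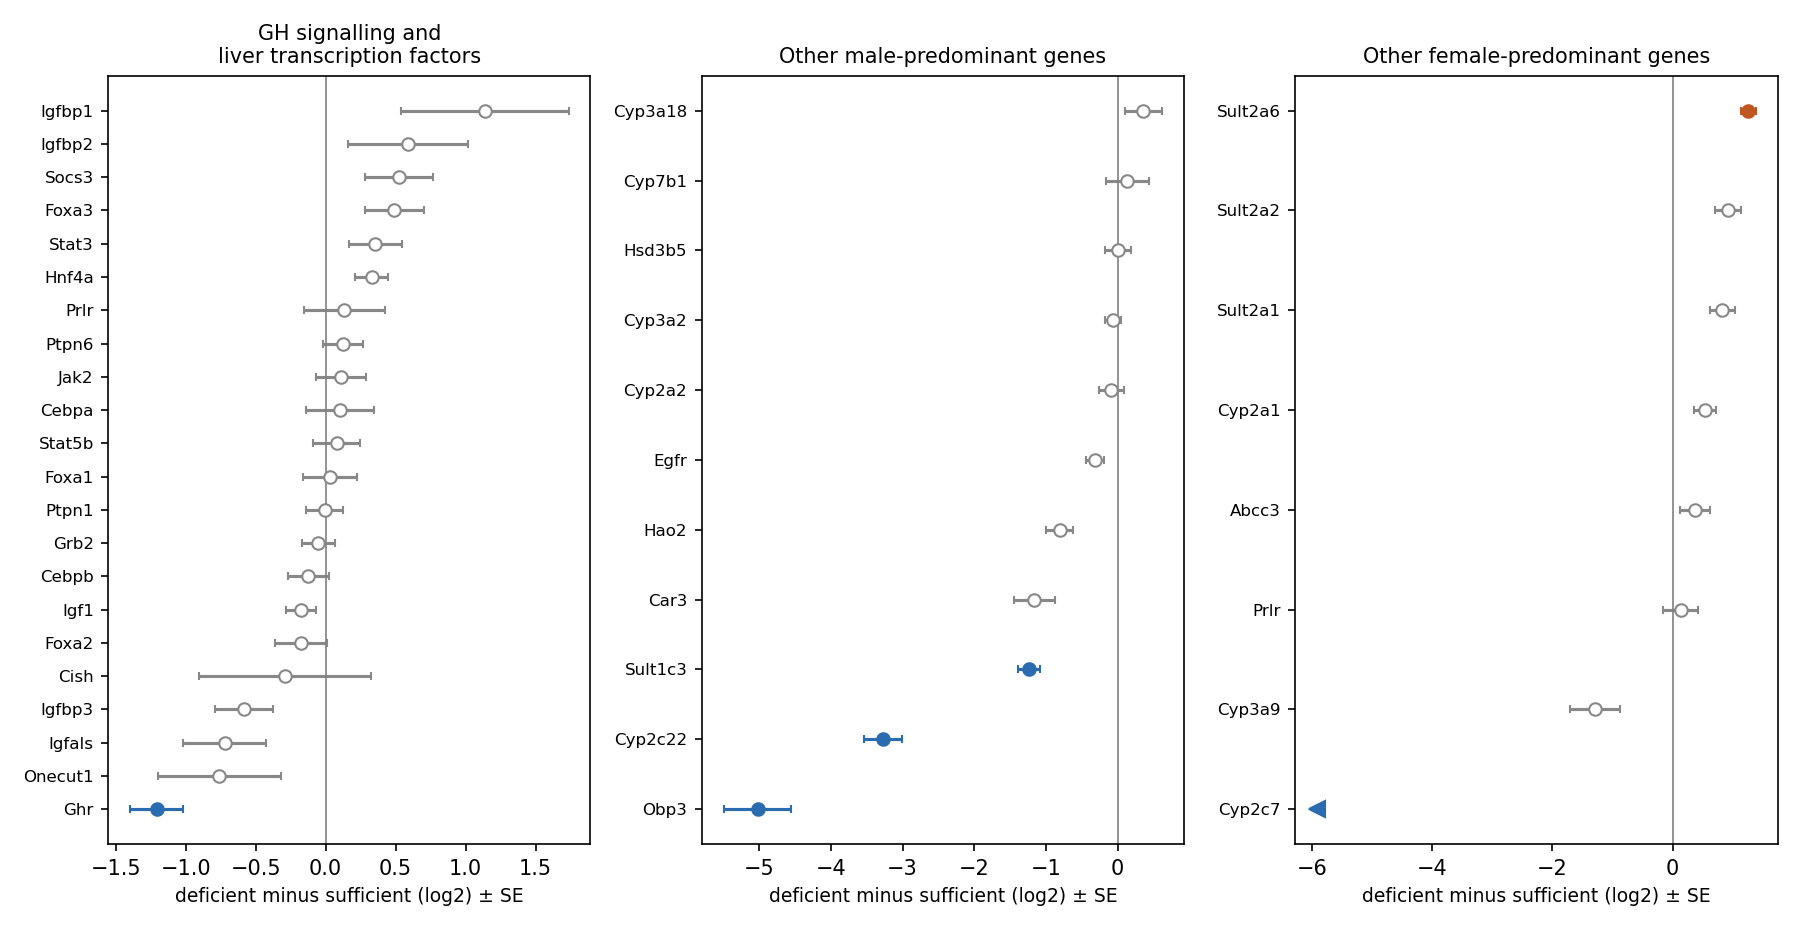
Deficient minus sufficient difference ± SE (log2 scale) of the tested genes of 3 lists, 1 probe set per gene; horizontal axes differ, and the triangle marks a bound. Filled points passed an adjusted p of 0.05 in limma (orange higher, blue lower) and open grey points did not; Ghr at -1.21 is the filled point of the first list, and Cyp2c7 is drawn at its bound of -5.92, against the filter value.

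Among 8 tested Cyp2c relatives and P450 electron donors, Cyp2c7 and Cyp2c22 fell, and 6 did not pass. Por, the reductase that passes electrons to all these P450s, was 10.47 ± 0.55 and 10.53 ± 0.12 (difference 0.05, SE 0.23), and Cyp2c6v1, another abundant liver P450, was -0.44 (SE 0.12, limma adjusted p = 0.112). Of 21 tested genes of steroid hormone turnover, Sult2a6 rose and 20 did not pass, with a median of 0.05. Without sufficient liver 4, 3 of them were called, and without deficient liver 3, 2 were. Over all probe sets 90 (1.72%) were called, 38 higher (0.725%) and 52 lower (0.992%), or 17 higher and 58 lower with arrays set to a common median; the count was 59 without sufficient liver 3 and 48 without deficient liver 4.

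The genes whose 8 liver values ran most like those of each P450 were found by Pearson's r, as a description, with the diet difference included in the likeness. For Cyp2c13 they were Ldhd, a lactate dehydrogenase of the D form (r = 0.982), Acaa1b, a peroxisomal thiolase (0.978), and Cyp2c22 (0.973), all called lower in limma. For Cyp2c12 they were Ddc, the aromatic amino acid decarboxylase (0.973), Scaf8 (0.958) and Ttc36 (0.947), of which Ttc36 was called higher (0.64, SE 0.13, limma adjusted p = 0.0256). For Cyp2c11 they were Dbi, the acyl-CoA-binding protein (0.948), Paqr7, a progestin receptor (0.933), and Prdx1, a peroxiredoxin (0.928), none of them called. After each diet's mean was taken off, other genes came first: Pde4b (0.983), Nap1l1 and Pstpip1 for Cyp2c13, Tnxa-ps1 (0.965), Ahsg and Tsc2 for Cyp2c12, and Higd2a (0.963), Mpi and Acvr1b for Cyp2c11. The best of many probe sets over 8 values reach a high r in any case, and the arrays share their scaling.

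The tissue label was checked on hepatocyte markers. All 14 tested markers had positive differences and none passed; Alb, the plasma albumin, was 15.33 ± 0.15 and 15.52 ± 0.11. Markers of other cells and zones moved beside the P450s. Of 6 tested erythroid markers 4 fell, and their mean level was 9.47 to 9.70 over sufficient and 8.41 to 8.83 over deficient livers. Of 7 tested markers of pericentral hepatocytes, Oat and Avpr1a fell and 5 did not pass: Glul at -0.50, Cyp1a2 at -0.46, Slc1a2 at 0.14, Cyp7a1 at 0.17 and Cyp2e1 at 0.43 (limma adjusted p = 0.0690). Their mean level was 10.98 to 11.28 against 10.64 to 10.76. Of 9 tested periportal markers Sds and Arg1 rose and 7 did not pass, 6 of them with positive differences and Pck1 at -0.62, with mean levels of 11.04 to 11.45 against 11.50 to 11.84. Of the macrophage, stellate, endothelial and bile duct markers, 1 of 7 rose, 1 of 8 rose, 1 of 5 fell and 0 of 5 passed in limma. Over all 3135 tested genes, 0.829% were called higher and 1.05% lower in deficient livers at the same threshold. An unadjusted limma p under 0.05, a looser threshold than the one used for these marker counts, was met by 758 of the 5244 tested probe sets. For RNA quality, the ratio of 3′ over 5′ probe sets, on the log2 scale, was 0.0626 higher in deficient livers for GAPDH (p = 0.743 in a two-sided exact permutation test, n = 4 per diet) and differed by -0.0951 for beta-actin (exact p = 0.457). The part of cell types, zones and RNA quality in the differences of the 3 P450 genes was not tested.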

How the data were processed

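Liver RNA of 14 samples was measured on single-channel Affymetrix rat arrays. Per the labels, total RNA came from a column kit and targets from about 10 µg or about 2 µg. The authors deposited 1 intensity per probe set and array on a linear scale; which program made it is not given in the sources used here. Its values show that each array had already been scaled, to a trimmed mean of 1001.9 to 1002.1 with 2% taken off each end, and its median intensity was 175.1 to 231. The number of arrays limits the precision. All 14 columns were matched to a label and 0 were left out.

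The 59 control probe sets were removed, arrays were rescaled to a trimmed mean of 500, and log2 of the intensity plus 16 was taken. Probe sets with a mean under the 40th percentile (6.196) were dropped, leaving 5244. Gene names are those of the platform annotation (7006 probe sets with 1 symbol, 308 with several, 1426 with none listed), and the 7 probe sets matched GRCr8 RefSeq by Entrez identifier; promoters are from RefSeq, build GRCr8. The mean shift between RNA amounts over 6 pairs was removed, arrays of 1 diet and number were averaged, and limma 3.58.1 in R 4.3.3 (lmFit, eBayes with a trend) was run over all tested probe sets with Benjamini-Hochberg adjustment. Promoters were aligned with Biopython 1.88. The fits were tested on simulated data.

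The genes and lists were chosen with earlier results of these data known. The text names all 7 probe sets, up to 4 called genes per list, the genes of highest r, and Ghr, Stat5b, Hnf4a and Onecut1; other list members named without a call, and markers of cells and zones, were picked after their values were seen. The 10 µg and 2 µg arrays sharing diet and number deviated together (r of 0.202 to 0.351 in 6 pairs), so the number pairs them; this comes from the data, not the labels. Alternatives are in the closing section.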

Additional observations from a re-analysis of the deposited data

Results flagged for a closer look

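In 1 of 14 groups of 4 livers (7 probe sets, 2 diets) a single liver passed the tabulated value of Dixon's criterion, which chance meets in about 1 of 20 groups. On J03786_s_at of Cyp2c12, deficient liver 3 read 9.21 and the other deficient livers 9.72 to 9.83, a gap of 0.830 of the group's range against a tabulated critical value of 0.829; the gap is 0.8296 to 4 digits and the unrounded critical value 0.82975, so the liver falls just short of the criterion without that rounding. That liver has a 10 µg array only. Without this liver the diet difference of the probe set was 1.68 in place of 1.54.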

How the results depend on the processing

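The diet differences of the 7 probe sets kept their sign in all 126 recomputations and moved by less than 1 SD between deficient livers. For J02657_s_at and X79081mRNA_f_at of Cyp2c11 some moves were larger than the SD between sufficient livers (0.02 and 0.23). Leaving out 1 liver at a time gave -0.38 to -0.22, -0.68 to -0.44 and -0.92 to -0.62 for Cyp2c11, 1.27 to 1.504 and 1.30 to 1.71 for Cyp2c12, and -2.25 to -2.02 and -2.73 to -2.44 for Cyp2c13. Over other scalings, pseudocounts, RNA amounts and designs the ranges were -0.37 to -0.30, -0.66 to -0.42, -0.80 to -0.47, 1.15 to 1.49, 1.36 to 1.598, -2.24 to -2.08 and -2.73 to -2.54. The 90 probe sets called by diet became 33 in the 2 µg arrays alone, 250 over 14 arrays with a random block of diet and number, 23 with Dbp as a covariate, and 48 to 94 without 1 liver. With arrays set to a common median 17 were higher and 58 lower. The random block called 5 male-predominant, 5 female-predominant and 4 steroid genes; Dbp as a covariate left 0 of the growth hormone list. Without 1 liver the lists gave 1 to 2 (growth hormone), 3 to 4 (male), 2 to 4 (female), 2 to 3 (Cyp2c relatives) and 1 to 3 (steroid) calls. The replicate number does not pair livers across diets (r of -0.08 to 0.07); as a replicate block it gave 5 male-predominant calls and 29 higher and 49 lower probe sets. For RNA amount, the block of diet and number called 2 probe sets, leaving out 1 liver 0 to 2. The small amount difference of M18363cds_s_at (0.01) turned to -0.0157 with a common median and to -0.0202 with that block, and ran from -0.0813 to 0.0646 without 1 liver; X79081mRNA_f_at ran from -0.0194 to 0.128, and the interaction of J02657_s_at from -0.101 to 0.0640. The other interactions kept their sign without 1 liver but moved widely, over 0.0449 to 0.399 and -0.369 to -0.0123 for Cyp2c11, 0.0711 to 0.579 and 0.00771 to 0.514 for Cyp2c12, and 0.0650 to 0.278 and -0.319 to -0.0633 for Cyp2c13. The fitted Cyp2c7 difference was -8.91 with a smaller and -5.82 with a larger pseudocount than 16. Cyp2c7 was called in both settings. None of the amount differences or interactions of the 7 probe sets was called, and where a count or sign moved the cause was not tested. With 4 livers per diet, the Cyp2c11 differences of -0.30, -0.53 and -0.73 exceeded the SDs between deficient livers (0.21, 0.34 and 0.40) but were of the same order. The SDs between sufficient livers were smaller.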
